A study of Mus musculus with 24 samples.

Results

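Weakly accessible chromatin sites that lost accessibility when active YAP was switched on are the subject here. They are the autosomal sites in the authors' deposited table of YAPCA ATAC-seq whose log2 read concentration averaged below 7 and was lower with doxycycline (Dox) than without it. The rule found 2040 such sites among the 30509 that the table lists, all with a false discovery rate (FDR) of at most 0.05. The concentration is the log2 of a normalised read count for a site, given as a mean per group of 3 samples, so the limit of 7 stands for 128 reads. The concentrations and their difference chose the sites and are described below without a test. For comparison, 1814 closed autosomal sites lay at or above the limit (strong closed), 9022 opened sites lay below it (weak opened) and 16929 opened sites lay at or above it (strong opened). The remaining 704 listed sites were on a sex chromosome.

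The cells were primary mouse periosteal cells in culture, from the connective tissue layer that covers bone. YAPCA cells carried the Cre driver B6.C-tg(CMV-Cre)1Cgn/J, the inducible transgene tetO-YAPS127A and the allele Gt(ROSA)26Sortm1(rtTA,EGFP)Nagy/J, so CMV-Cre, the Dox-dependent activator rtTA and the transgene itself were in untreated and treated cells alike. CMV-Cre is active broadly rather than in a single cell type, and neither the age of the mice nor the length of treatment is stated in the sources at hand. The groups were YAPCA cells left untreated or given 1 µM Dox, in ATAC-seq and in RNA-seq, with C57BL6 wild-type cells treated in the same ways as the check on Dox itself, which makes 8 groups of 3 samples and 24 samples. Dox was dissolved in water and the controls received no vehicle. Since samples within a group are labelled technical replicates, the p-values below cover no more than the spread among them, which may be technical.

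YAP is a transcriptional co-activator that the Hippo kinases hold in the cytoplasm by phosphorylation, and the S127A form lacks a serine through which it is retained there. YAP does not bind DNA itself and acts through TEAD factors, often at enhancers where AP-1 factors also bind. ATAC-seq uses a transposase that cuts where nucleosomes are displaced, so a site with fewer reads was cut less often.

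The direction of every site rests on which column holds which group. In the main sheet of the authors' deposited table the fold equals the Dox concentration minus the untreated concentration within 0.01. A further sheet for chromosome 1 keeps that order for all 2321 of its sites, 153 of them weak closed sites. The sheet for chromosome 3 has the group headings exchanged for all 1932 of its sites, 110 of them weak closed sites. The order of the main sheet is used throughout. The scaling of the ATAC-seq libraries is not stated in the sources at hand, and 87.1% of the 29805 autosomal sites in the table were opened. The files hold no value per ATAC-seq sample, and their total depth is unknown.

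Sequence was read only where a site touched a RefSeq promoter window, which runs from 250 bases before to 50 bases after a listed start site on GRCm38.p6, the assembly that mm10 names. In all, 51 of the 2040 sites touched 54 windows of 52 genes. The 5 stretches shown here were chosen after their values were seen, from stretches in the 250 bases before a start site that lie in no listed gene span. The stretches of Gm30241 and Gm28867 show AP-1 letters, those of Slc22a17 and Gabarap belong to the tested genes of this group that fell in RNA-seq, and that of B4galt7 shows a TEAD match. Capitals mark matches to any of the 21 motifs searched, on either strand, and each stretch is the overlap of the site with the 250 bases before the start site, written along the gene. The site at Gm28867 runs on past the start site, to 118359627, and that part is not shown. Nor are the parts beyond the 250 bases of the sites at Gm30241, which begins at 52884442, and Slc22a17, which ends at 54913397. In the authors' deposited table the folds were -0.42 (FDR 0.0407) at Gm30241, -0.65 (0.0179) at Gm28867 and -1.08 (0.0176) at Slc22a17. They were -0.56 (0.0493) at Gabarap and -0.69 (0.0164) at B4galt7 in the same deposited table.
Gm30241, chr5:52884558-52884791, plus strand: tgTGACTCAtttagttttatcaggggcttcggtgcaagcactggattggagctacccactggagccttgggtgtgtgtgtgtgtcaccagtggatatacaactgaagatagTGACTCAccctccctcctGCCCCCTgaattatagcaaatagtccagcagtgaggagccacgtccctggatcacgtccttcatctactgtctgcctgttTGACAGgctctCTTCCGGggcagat
Gm28867, chr1:118359099-118359321, plus strand: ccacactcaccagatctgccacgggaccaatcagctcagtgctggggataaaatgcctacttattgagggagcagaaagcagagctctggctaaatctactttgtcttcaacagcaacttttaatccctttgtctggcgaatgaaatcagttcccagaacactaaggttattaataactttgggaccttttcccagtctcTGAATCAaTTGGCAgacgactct
Slc22a17, chr14:54913300-54913382, minus strand: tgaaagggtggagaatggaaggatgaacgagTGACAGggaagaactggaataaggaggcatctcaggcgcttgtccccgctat
Gabarap, chr11:69991217-69991319, plus strand: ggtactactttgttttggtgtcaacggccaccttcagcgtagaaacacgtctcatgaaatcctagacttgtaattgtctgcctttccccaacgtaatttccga
B4galt7, chr13:55599721-55599838, plus strand: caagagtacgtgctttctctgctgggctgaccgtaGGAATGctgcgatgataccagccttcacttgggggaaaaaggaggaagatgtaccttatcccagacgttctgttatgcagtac

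The Gm30241 stretch holds the AP-1 letters TGANTCA at 2 places, together with letters of the CTCF core, an ETS motif and a MEIS motif. Gm28867 holds the AP-1 letters beside a nuclear factor I site, TTGGCA. The stretch of Slc22a17, whose product is a receptor for the iron carrier lipocalin-2, holds the MEIS letters TGACAG. That of B4galt7, an enzyme of the linker on which glycosaminoglycan chains are built, holds the TEAD letters GGAATG. No motif letters fell in the stretch of Gabarap, an autophagy protein of the ATG8 family.

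A larger share of the weak listed sites than of the strong ones was closed. Below the limit, 18.4% of 11062 autosomal sites were closed, against 9.68% of 18743 at or above it. The share went down step by step with concentration, from 23.8% of sites at a concentration of 2 to 5 through 17.3% at 6 to 7 and 9.62% at 8 to 9 to 3.85% at 9 to 13. These are shares of listed sites, and the smallest change that was listed depended on the concentration. In the authors' deposited table the closed fold nearest to 0 was -0.81 at a concentration of 2 to 5, -0.41 at 6 to 7 and -0.16 at 9 to 13.

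**Figure D1:**
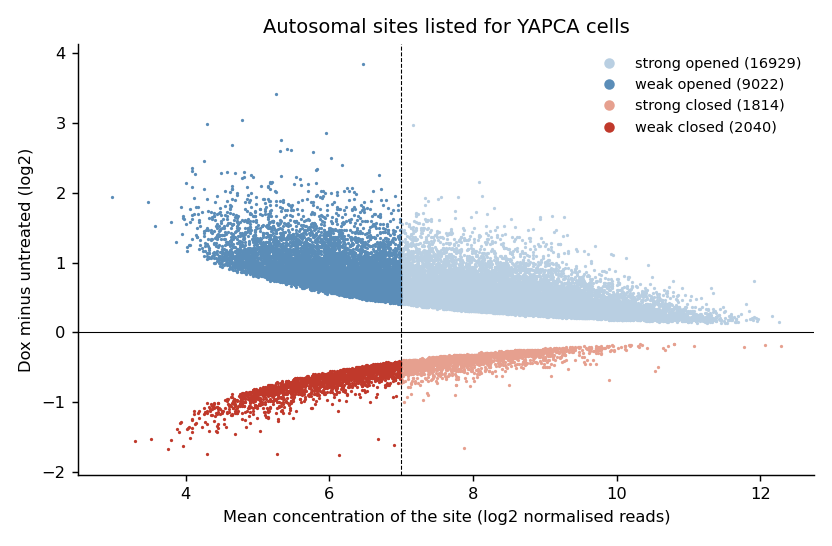
Mean log2 concentration of each listed autosomal site (horizontal axis) against its log2 difference, Dox minus untreated (vertical axis), from the authors' deposited table. Each point is a site and the dashed line is the limit of 7. The 2040 weak closed sites lie at the lower left, and the empty band around 0, which widens to the left, holds no listed site.

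The median weak closed site kept 62.4% of its untreated reads. Its concentration went from 6.36 (82.1 reads) without Dox to 5.67 (50.9 reads) with Dox, as medians over sites in the authors' deposited table. The fold, as log2, had a median of -0.68, with the lowest site at -1.76 and the highest at -0.41, which stand for 29.5% and 75.3% of the untreated reads. Of the sites, 193 (9.46%) had a log2 fold below -1, against 1 of the 1814 strong closed sites, whose median fold was -0.39, in the authors' deposited table. Their FDR had a median of 0.0234, with 488 sites (23.9%) below 0.01 and 78 below 0.001, per the authors' deposited table. The corresponding share below 0.01 was 38.9% in strong closed, 61.4% in weak opened and 72.4% in strong opened sites. The listed weak closed sites carried larger folds than the strong closed ones and a smaller share of low FDR values. The listing favours larger folds at weak sites, so this difference is not a result about the sites. The closed fold nearest to 0 was -0.41 at a concentration of 6 to 7 and -0.31 at 7 to 8 in the authors' deposited table.

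At the concentration limit, sites on either side had like values. Just inside lay chr7:132286837-132287418 near Chst15 with a concentration of 6.99 and a fold of -0.42, and just outside lay chr11:52272641-52272913 near Tcf7 with 7.0 and -0.45, both from the authors' deposited table. At the fold limit the member nearest to 0 was chr4:83343228-83343617 near Gm42306, at -0.41 in the authors' deposited table. The weak site nearest to 0 on the other side was opened by 0.41, at chr12:16958939-16959166 near Rock2, per the same deposited table, so no weak site lay between these values.

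Weak closed sites were short, with a median width of 232 bases and a range of 74 to 725. Weak opened sites had a median of 236 bases, and the strong groups had medians of 485 (closed) and 441 (opened). Width therefore went with concentration and hardly with direction. The sites were spread over all autosomes, from 4.94% of the listed sites of chromosome 12 to 8.57% of those of chromosome 17. Of the megabase windows that held any, 574 of 1134 held a single weak closed site and 31 held 5 or more. The fullest, chr15:27000001-28000000, held 9 among 28 listed sites.

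Closed sites lay nearer to promoters than opened sites of the same concentration range. A promoter site is taken here as one whose centre lies within 1 kb of a listed start site. Of the 1966 weak closed sites off chromosome 18, for which the reference lists start sites, 215 (10.9%) were promoter sites (95% exact binomial interval 9.59% to 12.4%, for counting error only). The share was 12.9% in strong closed, 2.52% in weak opened and 8.32% in strong opened sites. The median distance to a listed start site was 22.4 kb, against 17.6 kb, 35.6 kb and 24.8 kb in those groups. Sites are not replicates of a condition, so these shares are given without a test. Inside a gene span, from the first to the last base of a gene, lay 1235 weak closed sites (60.5%), close to the 65.6%, 58.5% and 60.7% of the other groups. The reference used has no exons, so introns, exons and untranslated regions cannot be told apart.

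Within 10 kb, weak closed sites lay mostly apart from other listed sites. Like strong closed sites, they lay near closed sites more often than opened sites did. Another closed site lay within 10 kb of 274 (13.4%), against 18.4% of strong closed, 2.9% of weak opened and 3.27% of strong opened sites. An opened site lay within 10 kb of 365 (17.9%), against 20.3% of strong closed, 40.1% of weak opened and 47.3% of strong opened sites. Neither was found within 10 kb of 1451 (71.1%). At a limit of 50 kb most had a neighbour, since 68.1% of weak closed sites had an opened site and 32.3% another closed one, and 21.2% had neither. The corresponding shares within 50 kb were 73.8%, 40.1% and 16% in strong closed sites and 77.7%, 16.1% and 19.1% in weak opened sites. Opened sites made up most of the table, so for any site a closed neighbour was the rarer event. Within 1 kb of another closed site lay 151 (7.4%), and such neighbours may be pieces of a single open region. Within 1 kb of an opened site lay 14 (0.686%).

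**Figure D2:**
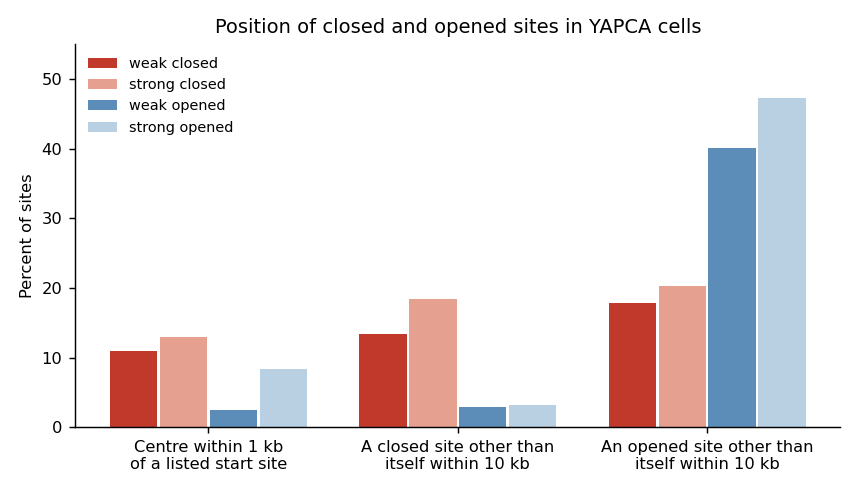
Percent of the sites of each group (vertical axis) whose centre lay within 1 kb of a listed start site, that had a closed site other than themselves within 10 kb, and that had an opened site other than themselves within 10 kb. Each bar is a share of all sites of a group, so it has no error bar, and the first set leaves out chromosome 18. Weak closed sites reach 10.9%, 13.4% and 17.9%, close to strong closed sites and apart from the opened ones in the 2 neighbour measures.

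The promoter windows touched by weak closed sites were poorer in CpG than those at strong opened sites. Of the 54 windows 14.8% held 15 or more CpG, against 35.2% of all 31396 autosomal windows, 35.6% of the 118 at strong closed sites, 32% of the 97 at weak opened sites and 68.8% of the 1194 at strong opened sites. Median GC content was 48.5%, against 53% over all windows. The AP-1 letters TGANTCA stood in 11 of the 54 windows (20.4%), 2 of which overlap at the single gene Gm35865. They stood in 7.84% of all windows, 12.7% of those at strong closed sites, 8.25% at weak opened and 8.38% at strong opened sites. The TEAD letters GGAATG stood in 14.8%, against 14.6% of all windows, 28.9% at weak opened and 20% at strong opened sites. The GC box GGGCGG stood in 22.2%, against 36% of all windows. These counts are small and are not tested, the letters may lie in the part of a window outside the site, and with the sites of FDR below 0.01 alone the AP-1 share was 8.33% of 12 windows.

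The sites that closed most lay beside Egr3, an immediate-early zinc finger transcription factor, and beside the collagen gene Col6a1. Toward higher coordinates from Egr3 (chr14:70077317-70082613), 4 weak closed and 2 strong closed sites and no opened site were linked to the gene. In the authors' deposited table chr14:70084674-70084823 went from a concentration of 6.76 to 5.0, the lowest fold of all at -1.76 (FDR 2.21e-11). The deposited table gives chr14:70085781-70086094 a fold of -1.62 with the smallest FDR of all weak closed sites, 1.18e-19, and chr14:70084342-70084591 a fold of -1.53. These 3 sites lie 1.85 to 3.32 kb beyond the gene, within less than 2 kb of each other, and the fourth, chr14:70091018-70091284, lies 8.54 kb beyond it with a fold of -0.75 in the authors' deposited table.

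Beside Col6a1 (chr10:76708792-76726044), a chain of the microfibrillar collagen VI, chr10:76707121-76707346 fell to 29.9% of its untreated reads, a fold of -1.74 with an FDR of 5.84e-07 in the authors' deposited table. It lies 1.56 kb beyond the end of the gene, 18.8 kb from its listed start site. Equal to it at -1.74 in the deposited table was chr15:27362910-27363043 near Gm19111, at 30.1 reads without Dox and 9 with Dox. The other 5 of the 10 lowest folds, -1.53 to -1.67 in the deposited table, stood at sites with at most 23.6 reads in the untreated cells, the nearest genes being Asap2, Agbl4, Gm20762, Kbtbd6 and Gm18079. At such low counts a fold is imprecise. The remaining site among the 5 with the smallest FDR was chr11:86517169-86517650 inside Rps6kb1, the S6 kinase gene, with a fold of -0.92 and an FDR of 9.66e-07 in the authors' deposited table.

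To see what the sites sit beside, each was linked to the gene span nearest to its centre within 50 kb. In this way 1949 sites were linked to 1829 genes and 91 had no gene within 50 kb. A single weak closed site was linked to 1636 of the genes, 2 to 164 genes and 3 or more to 29. Of the linked genes 1636 had a line in the YAPCA RNA-seq table, 632 of these had a mean below 10 normalised read counts and were not tested, and 1004 were tested. Those 1004 genes carried 1136 of the 2040 sites, so 904 sites have no RNA-seq test behind them. The YAPCA RNA-seq libraries held between 16351891 and 28734643 reads.

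Genes beside weak closed sites fell more often than genes in general and rose about as often. Among the 1004 tested genes 199 (19.8%) fell and 138 (13.7%) rose (limma, Benjamini-Hochberg adjusted p below 0.05 over all 13477 tested genes), where 13.5% of all tested genes fell and 14.3% rose. The other 667 did not pass in either direction. The median log2 change, Dox over untreated, was -0.025, against 0.001 over all tested genes, so the typical linked gene hardly differed from the typical gene. For genes linked to strong closed sites the shares were 28.3% and 12.4%, with a median of -0.051. For those linked to weak opened sites they were 12.9% and 21.9%, with a median of 0.023. A gene can be in several of these groups, and no test of the differences between them was made.

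The shares varied with what else was linked to the gene. Of the 336 tested genes with no opened site linked, 19.3% fell and 6.25% rose, with a median of -0.049. Of the 668 with an opened site linked as well, 20.1% fell and 17.5% rose. Of the 190 that also had a strong closed site, 34.7% fell and 14.7% rose. The 814 without a strong closed site fell in 16.3% and rose in 13.5%, nearer to the background. The 293 genes with neither an opened nor a strong closed site fell in 15.4% and rose in 6.48%. The numbers of sites linked to a gene follow its length and surroundings, and their part in these shares was not tested.

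**Figure D3:**
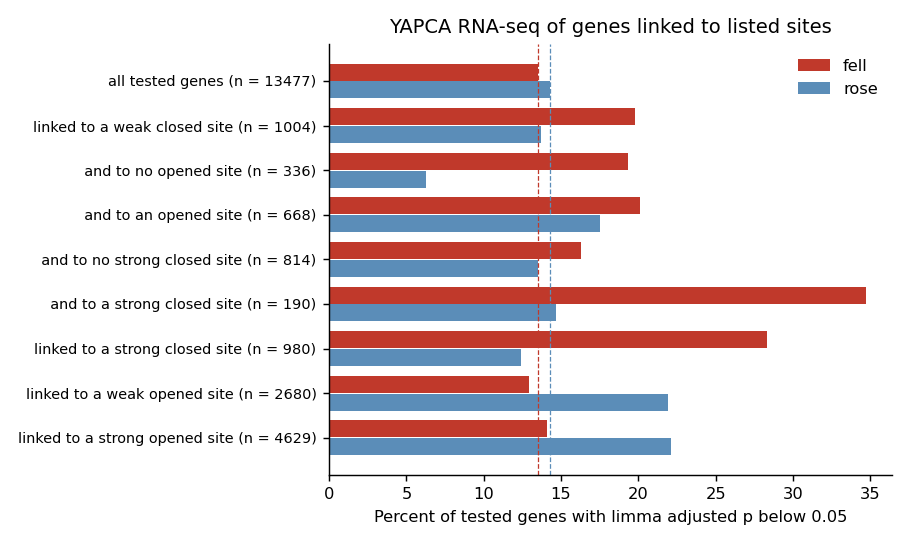
Percent of tested genes that fell (red) or rose (blue) in YAPCA RNA-seq by limma at an adjusted p below 0.05 (horizontal axis), for genes grouped by the sites linked to them (vertical axis, with the number tested). Dashed lines mark the background of 13.5% and 14.3%, and indented lines are subsets of the 1004 genes linked to a weak closed site. The longest bar is the 34.7% that fell among genes with a strong closed site as well.

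By number and place of the sites the shares varied without a single trend. Of the 106 tested genes with 2 weak closed sites 30.2% fell and 12.3% rose, while of the 24 with 3 or more 16.7% fell and 20.8% rose. Of the 130 genes with a weak closed site within 1 kb of their own listed start site 12.3% fell and 7.69% rose, both below the background. Of the 778 with a site inside the gene 19.9% fell, and of the 157 with the nearest site outside but within 10 kb 17.2% fell. Of the 69 with the nearest site 10 to 50 kb away 24.6% fell. Where a site had a fold below -1, 26 of 99 genes (26.3%) fell and 15 (15.2%) rose.

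Groups without overlap were common, found in 41% of all tested genes. Among linked genes that passed, did not overlap and averaged 100 or more normalised read counts, Egr3 had the most negative change. Its values were 239, 254 and 214 normalised read counts without Dox and 135, 124 and 92.2 with Dox. Every Dox sample lay below every untreated one, and the log2 change was -1.02 ± 0.13 (SE; limma, adjusted p = 2.12e-05). Slc43a2, a transporter of large neutral amino acids with 2 weak closed sites within 1 kb of its listed start site, measured 583, 530 and 604 normalised read counts without Dox and 293, 268 and 308 with Dox. The groups were again apart, at 572 ± 37.8 to 290 ± 20 (SD, n = 3) and a log2 change of -0.98 ± 0.0722 (SE; limma, adjusted p = 5.12e-08).

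Lrrc17, a secreted leucine-rich repeat protein with a site 0.372 kb from its listed start site that lies in Fbxl13 as well, measured 1336, 1298 and 1447 normalised read counts without Dox and 755, 730 and 817 with Dox, a log2 change of -0.82 ± 0.0521 (SE; limma, adjusted p = 9.8e-09). Plxnd1, a receptor for semaphorins, measured 1040, 1040 and 1029 normalised read counts without Dox and 625, 618 and 625 with Dox, a log2 change of -0.73 ± 0.044 (SE; limma, adjusted p = 6.1e-09). In both genes the Dox samples lay far below the untreated ones. The tetraspanin Tspan18 (-0.96 ± 0.0858), the axon guidance protein Draxin (-0.95 ± 0.167), the matrix protease Mmp28 (-0.92 ± 0.147), the transmembrane semaphorin Sema6d (-0.72 ± 0.118), the nuclear receptor coactivator Pnrc1 (-0.90 ± 0.0826) and the actin-associated Gas2 (-0.70 ± 0.102) complete the 10, as log2 changes ± SE, all with limma adjusted p between 6.1e-09 (Plxnd1) and 0.000431 (Draxin). At Draxin, Plxnd1 and Pnrc1, as at Egr3, no opened site was linked, while each of the others among the 10 had one.

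Among linked genes chosen by the same rule as the falls, the largest rises came from genes with an opened site as well. Dlc1, a tumour suppressor in human liver, measured 3882, 3996 and 3667 normalised read counts without Dox and 7535, 7694 and 7622 with Dox. Every Dox sample lay far above every untreated one, with a log2 change of 0.99 ± 0.0315 (SE; limma, adjusted p = 1.31e-11). It had 2 weak closed sites among 35 linked sites, the other 33 being opened, with folds up to 2.16 in the authors' deposited table. The adaptor gene Fyb2 (listed in the RNA-seq table as 1700024P16Rik) measured 345, 384 and 363 normalised read counts without Dox and 690, 685 and 711 with Dox, a log2 change of 0.93 ± 0.0592 (SE; limma, adjusted p = 1.01e-08). Vegfc, a growth factor of lymphatic vessels, measured 218, 191 and 174 normalised read counts without Dox and 324, 322 and 306 with Dox, a log2 change of 0.71 ± 0.09 (SE; limma, adjusted p = 2e-05). In each of these the groups did not overlap, which the choice of genes required.

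The actin-binding Ablim1 (0.73 ± 0.0765), the GATA cofactor Zfpm2 (0.70 ± 0.051), the lysophospholipid transporter Mfsd2a (0.63 ± 0.142), the formin Fmn1 (0.60 ± 0.0328), the potassium channel Kcnj15 (0.60 ± 0.056), the adhesion protein Flrt2 (0.54 ± 0.0404) and the synaptic scaffold gene Erc2 (0.53 ± 0.0911) also rose (log2 change ± SE; limma, adjusted p at most 0.00316, for Mfsd2a). All 10 had an opened site linked, and opened sites outnumbered weak closed ones at each, from 2 to 1 at Mfsd2a to 23 to 1 at Erc2. An opened site was also linked to 668 of the 1004 tested genes, and 87.1% of autosomal listed sites were opened.

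**Figure D4:**
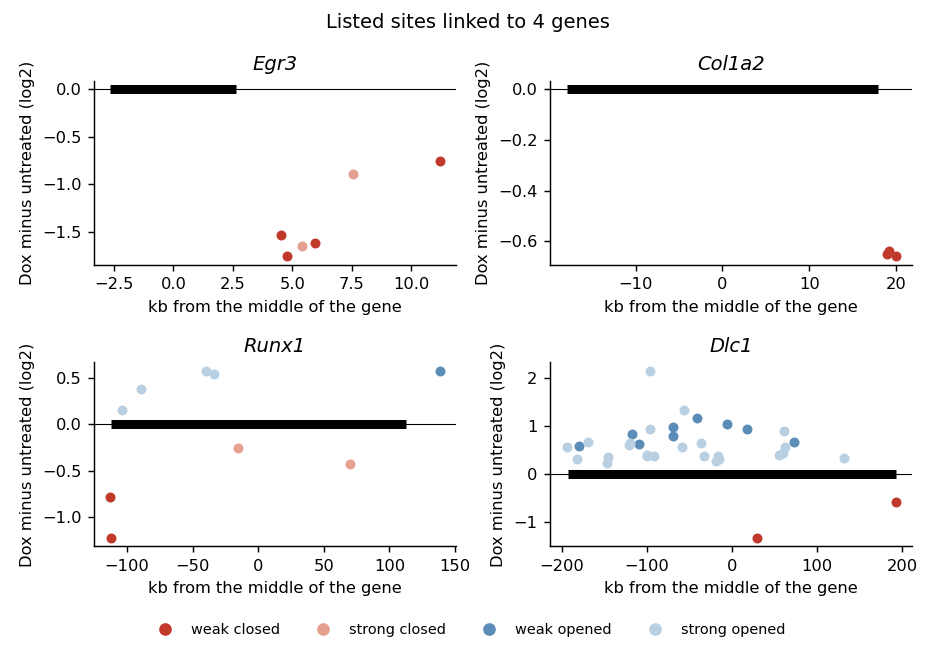
Log2 difference, Dox minus untreated, of every listed site linked to Egr3, Col1a2, Runx1 and Dlc1 (vertical axes, each with its own scale) against distance of the site's centre from the middle of the gene in kb (horizontal axes), with the gene as a black bar. Each point is a site of the authors' deposited table. Sites at Egr3 and Col1a2 are all closed and lie beyond the end of the gene, those at Runx1 are mixed, and 33 of the 35 at Dlc1 are opened.

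Beyond Egr3, of the 9 other genes shown for having the most weak closed sites, 2 rose, 0 fell, 6 did not pass and 1 was not tested. Over all tested genes 13.5% fell and 14.3% rose. Zbtb20, a zinc finger repressor with 5 weak closed and 10 opened sites, measured 1635, 1782 and 1852 normalised read counts without Dox and 1824, 1594 and 1983 with Dox, with overlapping groups and a log2 change of 0.03 ± 0.0627 (SE; limma, adjusted p = 0.759) that did not pass. Among genes with 4 sites, Chst11, which sulphates chondroitin, rose by 0.21 ± 0.0495 (adjusted p = 0.0502 with DESeq2 on whole reads) and the kinase gene Map4k3 by 0.23 ± 0.0373 (log2 change ± SE; limma, adjusted p = 0.00418 and 0.000206). Xylt1, the enzyme that starts glycosaminoglycan chains on core proteins, had -0.33 with an adjusted p of 0.0748 by limma and did not pass. The receptor kinase gene Alk, also with 4, was below the minimum for testing, at a mean of 2.38. Those shown with 3 are the first by alphabet among the genes with that number, predicted genes left out. They were Adamtsl1, Ap3b1, Atp9a and Chchd6, which had log2 changes from -0.03 to 0.06, and none passed. Of all 24 tested genes with 3 or more sites, 16.7% fell and 20.8% rose. The genes shown for the most sites are long, from 108 kb for Atp9a to 915 kb for Adamtsl1, except Egr3 with its 4 sites at 5.3 kb.

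By number, though not by share, the collagens and matrix list had more linked genes that fell than any of the other 15 lists. Of 28 genes of collagens and matrix, 9 had a weak closed site, and of the 8 tested 6 fell and 1 rose. Over the whole list, 13 of 26 tested genes fell and 3 rose, so falls were common with or without a weak closed site. The 374 genes of all 16 lists had a weak closed site in 13.4%, where 7.45% of all tested genes had one. The lists were chosen with earlier results of these data known, so these counts are a description.

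Col6a1 measured 17226, 16295 and 17635 normalised read counts without Dox and 12017, 11985 and 13266 with Dox, which is a log2 change of -0.46 ± 0.0373 (SE; limma, adjusted p = 1.5e-07). Col6a3, another chain of collagen VI, measured 28124, 28725 and 28589 normalised read counts without Dox and 22873, 22127 and 23475 with Dox, a log2 change of -0.32 ± 0.0258 (SE; limma, adjusted p = 1.36e-07). In both, every Dox sample was below every untreated one. Col1a2 (chr6:4505618-4541543), a chain of collagen I, had 3 weak closed sites and no other listed site. They lie between chr6:4542353-4542624 and chr6:4543380-4543727, 0.946 to 2.01 kb past the end of the gene and 36.9 to 37.9 kb from its listed start site, with folds of -0.64 to -0.66 in the authors' deposited table. Its RNA measured 220803, 219164 and 222112 normalised read counts without Dox and 188598, 186970 and 196070 with Dox, a log2 change of -0.21 ± 0.0259 (SE; limma, adjusted p = 1.38e-05) and again without overlap.

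The others that fell were the proteoglycan gene Vcan (-0.39 ± 0.0291), the fibronectin gene Fn1 (-0.18 ± 0.0281), the cross-linking enzyme Loxl1 (-0.28 ± 0.0418) and Col14a1 (-0.50 ± 0.0887), and the short-chain collagen gene Col8a1 rose (0.31 ± 0.027), as log2 change ± SE with a limma adjusted p of at most 0.00048, for Col14a1. Sparc, a collagen-binding glycoprotein, had -0.05 ± 0.0246 and did not pass (limma, adjusted p = 0.126). The elastin gene Eln was below the minimum for testing. Col8a1 had 9 opened sites beside its 1 weak closed site. Among those that fell, Vcan had 2 opened sites beside its 2 weak closed ones, while Col6a1, Col6a3 and Fn1 had no opened site.

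Levels of most tested stromal markers fell as well. Of 12 markers of periosteal and skeletal stromal cells, Col1a2 among them, 10 were tested, 7 fell and 0 rose. Their summed level was 586950 to 607524 normalised read counts without Dox and 468757 to 481653 with Dox. Most of that sum was collagen I, with means of 307111 without and 222276 with Dox for Col1a1 and 220693 and 190546 for Col1a2. Thy1 (0.01), Ctsk (0.01) and Ly6a (-0.11) did not pass on the log2 scale. Summed markers of endothelial cells (60.5 to 118 over all samples), macrophages (335 to 386) and muscle (984 to 1220) were far lower. The 7 osteoblast markers summed to 33880 to 34700 without Dox and 27732 to 28126 with Dox, most of it from Spp1, and of the 4 tested 3 fell (Spp1, Sp7 and Alpl), while Bglap was at 0 in every sample. Summed chondrocyte markers went from 3434 to 3722 without Dox to 2971 to 3177 with Dox, and summed osteoclast markers from 1525 to 1687 without Dox to 1076 to 1092 with Dox, with 2 of 4 tested falling in each. Nearly all of the osteoclast sum was Nfatc1 (means of 1044 and 744) and Itgb3 (540 and 315), the 2 that fell. Acp5 and Oscar, at means of at most 16.3 without Dox and 11.5 with Dox, did not pass, and Ocstamp was too low to test. The 5 epithelial markers summed to 475 to 529 without Dox and 727 to 798 with Dox, and 2 of the 2 tested rose, Krt19 and Krt7. Nearly all of that sum was Krt19, at means of 479 and 742 normalised read counts, and the defining markers Krt18, Epcam and Krt8 were too low to test, at means of at most 7.93 without Dox and 2.22 with Dox. In such bulk cultures fewer cells of a type and less RNA per cell cannot be told apart, for chromatin as for RNA, and the part of the marker levels in these results was not tested.

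Among 53 transcription factors of mesenchyme and patterning, 7 had a weak closed site, of which 3 fell and 0 rose. Over the whole list 13 of 46 tested genes fell and 3 rose. Runx1 (chr16:92601466-92826074), a RUNX factor of blood and skeletal progenitors, had 2 weak closed sites just beyond its end of lower coordinate, chr16:92601021-92601229 and chr16:92601265-92601438, with folds of -0.79 and -1.23 in the authors' deposited table. Its RNA measured 1786, 1738 and 1839 normalised read counts without Dox and 1248, 1401 and 1259 with Dox, without overlap, a log2 change of -0.46 ± 0.0453 (SE; limma, adjusted p = 1.42e-06). The nuclear factor I gene Nfix measured 8209, 8190 and 8188 normalised read counts without Dox and 6035, 6276 and 6554 with Dox, a log2 change of -0.38 ± 0.0298 (SE; limma, adjusted p = 9.51e-08). The groups of both were apart.

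Zeb1, a repressor of epithelial genes, had -0.14 ± 0.0388 (limma, adjusted p = 0.0139) and fell, but did not pass without untreated replicate 1 (-0.12, adjusted p = 0.0753) or without Dox replicate 2 (-0.11, adjusted p = 0.0818). Nfia had -0.19 ± 0.0784 and did not pass (limma, adjusted p = 0.082), though it did without untreated replicate 1 (-0.26, adjusted p = 0.0427). Hoxa10, a positional homeobox gene, had 0.02, Foxp1 -0.03 and the limb homeobox gene Alx4 -0.43 on the log2 scale, and none of these passed.

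In the list for WNT signalling, 6 of 34 genes had a weak closed site, of which 3 fell and 1 rose. The list and the 3 falls include Tcf4, which is not the WNT effector Tcf7l2. Over the whole list 13 of 31 tested genes fell and 4 rose. The ligand gene Wnt10b, which favours bone over fat formation, had a single listed site, closed by -0.72 in the authors' deposited table. Its RNA measured 77.6, 87 and 71.8 normalised read counts without Dox and 49, 45.9 and 40.5 with Dox, without overlap, a log2 change of -0.79 ± 0.159 (SE; limma, adjusted p = 0.00141). Tcf4, a basic helix-loop-helix factor that is distinct from the WNT effector Tcf7l2, measured 3697, 3671 and 3794 normalised read counts without Dox and 3334, 3218 and 3372 with Dox, a log2 change of -0.17 ± 0.0302 (SE; limma, adjusted p = 0.000488). Wnt5a, a ligand of the pathway that works without beta-catenin, measured 1085, 964 and 1029 normalised read counts without Dox and 1168, 1182 and 1184 with Dox and rose, with a log2 change of 0.20 ± 0.0461 (SE; limma, adjusted p = 0.00369).

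Tcf7l1, a repressor of WNT targets, fell by a small amount, at -0.23 ± 0.0713 (SE; limma, adjusted p = 0.0222). It passed with all libraries but not without untreated replicate 1 (adjusted p = 0.0572), untreated replicate 2 (0.0758), Dox replicate 1 (0.0953) or Dox replicate 3 (0.0765), where its log2 change was -0.24, -0.21, -0.20 and -0.17 by limma. The ligand genes Wnt4 (-0.01) and Wnt5b (-0.21) did not pass.

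Among immediate-early and AP-1 factors, 2 of 19 had a weak closed site and both fell, Egr3 and Fosl2. Fosl2, an AP-1 subunit with a part in bone matrix formation, had this site alone, closed by -0.65 in the authors' deposited table, and measured 5781, 5339 and 5440 normalised read counts without Dox and 4851, 4853 and 4862 with Dox. Every Dox sample was below the untreated ones, a log2 change of -0.18 ± 0.0309 (SE; limma, adjusted p = 0.000297). Over the whole list of these factors 6 of 18 tested genes fell and 5 rose.

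Of 29 growth factors and receptors, 4 had a weak closed site, and 2 fell and 2 rose. Over the whole list 6 of 27 tested genes fell and 11 rose. Igfbp4, which binds insulin-like growth factors, had a single listed site, chr11:99055844-99056334, 3.43 kb outside the gene with a fold of -0.84 in the authors' deposited table. Its RNA measured 20788, 20848 and 20718 normalised read counts without Dox and 15514, 15904 and 16142 with Dox, far apart, a log2 change of -0.39 ± 0.0239 (SE; limma, adjusted p = 7.09e-09). The receptor gene Fgfr1 fell and Igf1r rose, with log2 changes of -0.19 ± 0.0247 and 0.18 ± 0.0298 (limma, adjusted p = 2.25e-05 and 0.000285), and Vegfc rose as given above. Igf1r and Vegfc had 15 and 5 opened sites linked. Of the 2 that fell, Fgfr1 had 2 opened sites linked and Igfbp4 had 0.

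Weak closed sites were linked to 15% of the osteoblast, 12.5% of the chondrocyte and 20% of the adipocyte genes listed. Of all tested genes 7.45% had one. Over the whole lists 6 of 13 tested osteoblast genes fell and 0 rose, and 4 of 11 chondrocyte genes fell and 1 rose. Of 11 tested adipocyte genes 5 fell and 2 rose, so falls were common in these lists with or without a weak closed site. Of 20 osteoblast genes, 3 had weak closed sites, and beside Col1a2 neither Runx2, which directs osteoblast formation (-0.07), nor the homeobox gene Dlx5 (-0.26) passed. Of 16 chondrocyte genes, Sox5, a partner of SOX9 in cartilage, fell at a low level, from 23.4 ± 7.85 to 9 ± 1.13 as mean normalised read count ± SD over 3 samples, with a log2 change of -1.25 ± 0.31 (SE; limma, adjusted p = 0.00649). Zfp423, a factor of preadipocytes, measured 87.2, 77.8 and 85.8 normalised read counts without Dox and 31.3, 42.9 and 42.7 with Dox, without overlap, a log2 change of -1.09 ± 0.171 (SE; limma, adjusted p = 0.000155). The adipocyte genes Adipoq and Plin1 had weak closed sites but were below the minimum for testing, with no sample above 1.85 normalised read counts.

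Col11a1, a fibrillar collagen of cartilage, had a log2 change of 0.13 ± 0.0433 (SE; limma, adjusted p = 0.03) and rose, with overlapping groups. It did not pass without untreated replicate 1 (0.09, adjusted p = 0.165), untreated replicate 2 (0.12, 0.105), Dox replicate 2 (0.13, 0.0877) or Dox replicate 3 (0.12, 0.0581) by limma.

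Genes of the YAP pathway itself had such a site in shares of 8.7% of the targets and 9.52% of the Hippo components, where 7.45% of all tested genes had one. Of 23 classic YAP/TEAD targets, 14 rose and 1 fell over the whole list, and the 2 with a weak closed site, the ectonucleotidase gene Nt5e (0.36) and the forkhead gene Foxf2 (-0.04), did not pass. Of 21 Hippo components, the kinase gene Stk3 had 0.03 and did not pass. Vgll4, a TEAD-binding competitor of YAP, measured 904, 863 and 917 normalised read counts without Dox and 1113, 1064 and 1129 with Dox and rose, with a log2 change of 0.30 ± 0.0443 (SE; limma, adjusted p = 8.92e-05). It had 1 weak closed and 10 opened sites.

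In the remaining lists, the TGF-beta co-receptor gene Tgfbr3 fell by a log2 change of -0.38 ± 0.0457, the procollagen protease gene Adamts2 by -0.24 ± 0.0268 and the cystine transporter gene Slc7a11 by -0.40 ± 0.0773, and Boc, a hedgehog co-receptor, rose by 0.26 ± 0.0461 (log2 change ± SE; limma, adjusted p at most 0.000918, for Slc7a11). Cdon, the partner of Boc, had 2 weak closed sites and no other, with folds of -1.27 and -0.81 in the authors' deposited table. Its RNA measured 952, 897 and 1069 normalised read counts without Dox and 990, 939 and 970 with Dox, overlapping and with a log2 change of -0.01 ± 0.0564 (SE; limma, adjusted p = 0.956). A marked loss of accessibility was thus seen beside a gene whose RNA did not pass. Ltbp1, which anchors latent TGF-beta (-0.04), and the hedgehog effector Gli3 (-0.01) did not pass. Over the whole list of BMP and TGF-beta signalling 11 of 30 tested genes fell and 8 rose. For matrix proteases and inhibitors 8 of 19 fell and 5 rose, and for ATF4 stress targets 9 of 18 fell and 1 rose. For hedgehog signalling 2 of 9 fell and 2 rose. Falls were thus common in the first 3 of these lists with or without a weak closed site.

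For 3 further genes the call changed when a single library was left out. The interferon regulatory factor gene Irf7 measured 301, 343 and 386 normalised read counts without Dox and 257, 309 and 623 with Dox, so Dox replicate 3 stood alone. It had a log2 change of 0.10 ± 0.212 (SE; limma, adjusted p = 0.767) with all libraries and -0.28 (adjusted p = 0.0462) without that replicate, which turns the direction. Plat, a plasminogen activator, had -0.10 (limma, adjusted p = 0.0722) and passed without Dox replicate 3, at -0.14 (0.0127). It passed with all libraries too once replicate number was a block in limma (-0.10, adjusted p = 0.0276). The protease gene Adamts12 had 0.09 (adjusted p = 0.102) and passed without untreated replicate 2, at 0.12 (limma, 0.0496).

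**Figure D5:**
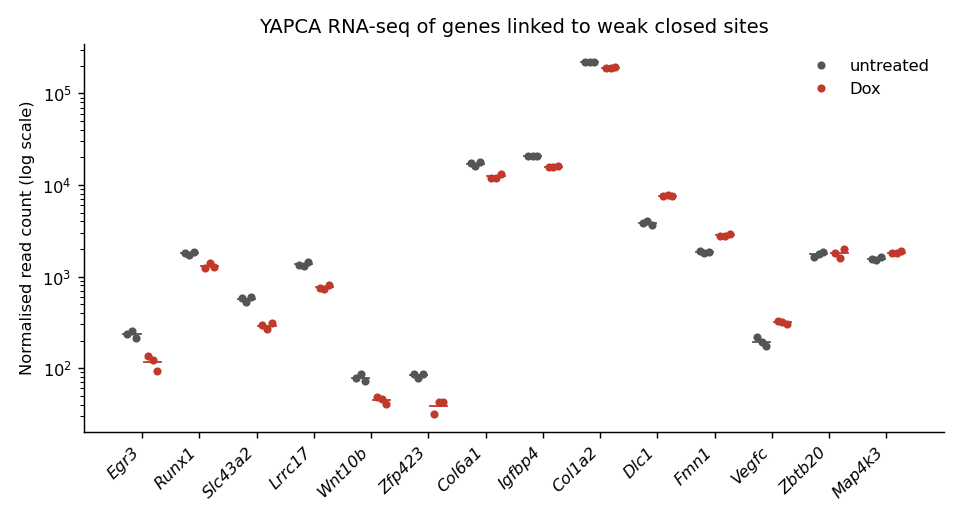
Normalised read counts (vertical axis, log scale) of 14 genes linked to weak closed sites in the YAPCA RNA-seq samples without Dox (grey) and with Dox (red). Points are samples, 3 per group, and horizontal lines are group means. The 9 genes from Egr3 to Col1a2 have all Dox samples below the untreated ones, Dlc1, Fmn1, Vegfc and Map4k3 have them above, and those of Zbtb20 overlap.

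Genes with a weak closed site in the promoter window were called in RNA-seq in shares near the background. Of the 52 genes 22 were tested, of which 2 fell and 2 rose (9.09% each), against a background of 13.5% and 14.3%. Slc22a17, whose site fell from a concentration of 5.31 to 4.23 in the authors' deposited table, measured 345, 369 and 314 normalised read counts without Dox and 295, 299 and 260 with Dox, a log2 change of -0.27 ± 0.0828 (SE; limma, adjusted p = 0.024). Gabarap, whose site went from 6.65 to 6.09 in the authors' deposited table, measured 5608, 5550 and 5596 normalised read counts without Dox and 4974, 5047 and 5078 with Dox, a log2 change of -0.15 ± 0.0259 (SE; limma, adjusted p = 0.000373). Both pairs of groups were apart, but Slc22a17 did not pass without untreated replicate 1 (-0.26, adjusted p = 0.076), untreated replicate 2 (-0.21, 0.116) or Dox replicate 3 (-0.20, 0.0862) by limma. B4galt7 had 0.06 and did not pass (limma, adjusted p = 0.455). The rises were larger. A930004D18Rik measured 92, 95.3 and 108 normalised read counts without Dox and 136, 153 and 124 with Dox, a log2 change of 0.47 ± 0.123 (SE; limma, adjusted p = 0.00859) that did not pass without Dox replicate 2 (0.40, adjusted p = 0.0558). Timm9, a chaperone of mitochondrial import whose window shares its site with that of 2700049A03Rik, measured 372, 360 and 341 normalised read counts without Dox and 437, 449 and 448 with Dox, a log2 change of 0.31 ± 0.0635 (SE; limma, adjusted p = 0.00145). In both, every Dox sample lay above every untreated one. The interferon-inducible Ifi207, at low levels, had -0.72 and did not pass (limma, adjusted p = 0.17), though it did without Dox replicate 3 (-1.16, adjusted p = 0.0136).

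No weak closed site was listed as changed by Dox in wild-type cells. The wild-type ATAC-seq table lists 42 sites, 36 opened and 6 closed, the weakest at a concentration of 8.91 in the authors' deposited table. None of them overlapped any of the 2040 weak closed sites by even 1 base, and the nearest lay 0.863 kb away. The wild-type list thus holds no site as weak as these in either direction, and values of unlisted wild-type sites were not analysed here. In RNA-seq the wild-type table lists 98 genes, 7 of which were linked to a weak closed site, Lrp1, Cltc, Itm2b, Itga5, Son, Igf2r and Sfpq. Of these, Lrp1, Itga5 and Igf2r fell in YAPCA cells by limma and were lower with Dox in wild-type cells too, at log2 folds of -0.16, -0.10 and -0.17 in the authors' deposited table. The YAPCA log2 changes were -0.11, -0.21 and -0.15 (limma, adjusted p = 0.0299, 0.000411 and 0.00803). Igf2r did not pass without Dox replicate 2 (-0.10, adjusted p = 0.0545), and Lrp1 did not pass without that library (-0.06, 0.187), untreated replicate 2 (-0.11, 0.0827) or untreated replicate 3 (-0.09, 0.0993) by limma.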

How the data were processed

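RNA-seq and ATAC-seq were made from YAPCA and wild-type periosteal cells with and without 1 µM Dox, 3 samples per group, grouped by the labels. For the ATAC-seq tools the submitters' processing notes name MACS2, DiffBind, Bowtie2, HOMER, bedtools and SAMtools, for RNA-seq featureCounts, HISAT2, DESeq2 and Picard, and as build mm10. Versions, settings, the transposase shift, any pooling before peak calling and the scaling of the ATAC-seq libraries are not stated in the sources at hand. The ATAC-seq sites of YAPCA cells carry log2 concentrations per group, a log2 fold, p-values and an FDR that the authors deposited, per the file headers. Wild-type sites are given in other, joined text fields, per the file headers. RNA-seq signal was deposited as normalised read counts, reads divided by 1 factor per library as the columns show, beside the authors' log2 fold changes and p-values. A linear fold (ratio) in the authors' wild-type table was not used.

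Members were the Sheet1 sites on autosomes with a Dox minus untreated concentration below 0 and a mean concentration below 7. Site starts were counted from 0 in the table and are given from 1. The members and the 16 gene lists were chosen with earlier results of these data known. Sites were linked to genes by RefSeq GRCm38.p6 spans (49997 genes) with Python 3.11.15. Linking by the nearest start site had been planned, but the reference lists start sites for 27025 genes, 79.9% of coding genes and none on chromosome 18, so the nearest span within 50 kb was used, and ties were all kept. Promoter windows came from the same reference. A motif search over whole sites was planned and not run, since no genome was used here.

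The YAPCA RNA-seq table has 35975 lines, 27 of them named by dates and none of these named here. On log2(normalised read count + 1), limma 3.58.1 (R 4.3.3) gave a moderated two-sided test with an intensity trend, over the 13477 genes averaging 10 or more, Benjamini-Hochberg adjusted. For low genes this scale understates log2 changes. Had the table held counts, a count test was planned. Within 0.01 read, 100% of values gave whole reads, 16351891 to 28734643 per library, which sets the precision. On these reads edgeR 4.0.16 called 1939 rises and 1885 falls and DESeq2 1.42.0 called 1469 and 1374, as alternatives. The script was tested on simulated data. Libraries of a group differed beyond sampling noise, with chi-square over degrees of freedom at 1.8 to 3.36, so each was counted. Every per-sample column was matched to a sample.

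Named sites were the 10 lowest folds, the 5 smallest FDR, sites at each limit and up to 3 per gene list. Named genes were the 10 largest falls and 10 largest rises that passed, averaged 100 or more and did not overlap, leaving out predicted genes. Also named were the 10 genes with most sites, again without predicted genes and with ties by alphabet, and up to 4 linked genes per list by adjusted p. Genes of a list beyond these are named as examples after their values were seen. Alternatives were other limits of the rule, links, pseudocounts, filters, TMM scaling, thresholds, a replicate block and leaving out each library.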

Additional observations from a re-analysis of the deposited data

Results flagged for a closer look

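Among the 7 genes linked to a weak closed site that the wild-type RNA-seq table lists, 3 moved in opposite directions in the cells of the 2 genotypes, with no overlap between groups in either. In YAPCA cells, groups without overlap were found in 41% of all tested genes. The share of all 98 listed wild-type genes that moved in opposite directions was not counted. The difference between genotypes was not tested, since the tables were normalised apart. Itm2b, an integral membrane protein, measured 6824, 6882 and 7309 normalised read counts in untreated and 5990, 6062 and 6378 in Dox-treated YAPCA cells, a log2 change of -0.19 (limma, adjusted p = 0.00035). In wild-type cells it was at 8838, 8623 and 8165 without and 9454, 9137 and 9501 with Dox, with a log2 fold of 0.13 in the authors' deposited table.

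Sfpq, a splicing factor of paraspeckles, had a log2 change of 0.16 in YAPCA cells (limma, adjusted p = 0.000442) and a log2 fold of -0.16 in the authors' deposited table for wild-type cells. Son, a protein of nuclear speckles, had 0.06 in YAPCA cells and did not pass (limma, adjusted p = 0.102), with -0.16 for wild-type cells in the authors' deposited table. The 98 listed wild-type genes were listed because they passed there, so such pairs are not a sample of all genes.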

How the results depend on the processing

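The number of weak closed sites was 488 with an FDR below 0.01, against 2040. The median log2 fold was -0.75 and -0.63 with limits of 6.5 and 7.5 and -0.76 with an FDR below 0.01. The promoter share was 13.7% within 2000 bases, 8.29% with coding start sites alone and 7.91% with an FDR below 0.01. Linked genes that fell numbered 51 with an FDR below 0.01, 65 with no opened site linked and 114 by the nearest listed start site (chosen after seeing the data), and those that rose 31, 21 and 76. These settings test fewer genes, and the shares that fell were 19.1%, 19.3% and 18.4%, against 19.8%. The median log2 change was -0.033 with an FDR below 0.01 and -0.049 with no opened site linked. Leaving out a library gave 164 to 205 falls, 111 to 137 rises and medians of -0.034 to -0.016. As shares of the linked genes these were 16.3% to 20.4% and 11.1% to 13.6%. Over all tested genes the same settings gave 10.3% to 13.2% falls and 11% to 13.4% rises. Within 50 kb rather than 10 kb (chosen after seeing the data), 68.1% of weak closed sites had an opened and 32.3% another closed site. By either overlap rule 0 weak closed sites met a wild-type site.

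Samples with the same replicate number did not vary together (correlations of deviations -0.001, 0.036 and 0.085), and a replicate block gave 220 falls and 161 rises. These were 21.9% and 16% of the linked genes, against 15.5% and 16.8% of all tested genes with the block. Of the 86 tested named genes, 58 of them called, Chst11 lost its call with DESeq2 (adjusted p = 0.0502), 5 lost theirs at 0.01 (Col11a1, Lrp1, Slc22a17, Tcf7l1 and Zeb1), and Cltc, Plat and Sparc passed with the block, which changed no other call among them. Leaving out a library ended the call of 7 (A930004D18Rik, Col11a1, Igf2r, Lrp1, Slc22a17, Tcf7l1 and Zeb1), and Irf7 ranged from -0.28 (without Dox replicate 3) to 0.36 (without Dox replicate 1). No cause of these changes was tested. Shares near promoters and motif letters rest on few sites, and weak sites have few reads, which limits each fold.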
